A study of Drosophila melanogaster with 2 samples.

Results

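Divergent gene pairs are neighbouring genes that are transcribed away from each other, so that the stretch between their start sites serves as upstream sequence of both. The regions described here are the 171 peaks of Doc2-eGFP chromatin immunoprecipitation whose summit fell in such a stretch, out of 1140 peaks on the 6 chromosomes analysed. A peak was included when the nearest protein-coding transcription start site (TSS) to the left of its summit was on the minus strand, the nearest to the right was on the plus strand, and each was within 1000 bp. The rule used position and gene models alone, and no measured level.

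The study had 1 group. Whole embryos aged 0 to 18 h came from transgenic flies that make Doc2 fused to eGFP. Sonicated chromatin of 200 to 800 bp was precipitated with an antibody against GFP, and there were 2 samples, labelled biological replicates 1 and 2. The material was whole animals, so the cells that gave the signal were not resolved, and all samples carried the tagged protein. The control library was not analysed here. Peak positions are on the dm6 assembly, and a peak's signal is the value that the authors' peak caller gave it, on a scale not given in the sources used here. Read counts were not used, so the depth behind a signal is unknown.

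Doc2 is a member of the Dorsocross group of T-box transcription factors, which act in the amnioserosa, dorsal ectoderm and heart of the fly embryo. T-box proteins bind DNA through a conserved domain and prefer sites built around GTGTGA. Divergent pairs are frequent in the compact fly genome, and many join genes that most cells use. Promoters of such genes often carry the DNA replication-related element (DRE), bound by Dref, or Motif 1, bound by M1BP, while the insulator protein BEAF-32 binds clusters of the DRE core.

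The sequence between the paired start sites is shown for 6 of the strongest divergent-pair peaks that lie outside annotated genes. They were chosen after their values were seen, because the short motifs in them recur in the comparisons. Each is the plus strand of dm6, read 5′ to 3′ over at most 200 bases around the summit and ending where a TSS is reached. Capitals mark 3 short motifs on either strand, which are CGATA (the BEAF-32 core, also inside the DRE), TTAAAA and ACAGTG. The positions are chrX:2703853-2703980 for Ugalt and eIF2Bbeta, chr3L:5139403-5139602 for Tcs5 and CHMP2B, chr3R:27636089-27636288 for CG5611 and Mtl, chr2L:13835365-13835563 for mRpS23 and CenG1A, chr3L:9426773-9426972 for Atat and Shc and chr3L:15982891-15983090 for brm and Arl1.
Ugalt and eIF2Bbeta: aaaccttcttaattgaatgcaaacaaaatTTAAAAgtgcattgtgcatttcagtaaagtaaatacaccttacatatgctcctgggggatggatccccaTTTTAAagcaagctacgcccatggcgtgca
Tcs5 and CHMP2B: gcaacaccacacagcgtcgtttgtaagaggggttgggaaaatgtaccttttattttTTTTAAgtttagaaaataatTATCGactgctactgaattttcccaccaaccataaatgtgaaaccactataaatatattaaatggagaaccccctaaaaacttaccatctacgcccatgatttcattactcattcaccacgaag
CG5611 and Mtl: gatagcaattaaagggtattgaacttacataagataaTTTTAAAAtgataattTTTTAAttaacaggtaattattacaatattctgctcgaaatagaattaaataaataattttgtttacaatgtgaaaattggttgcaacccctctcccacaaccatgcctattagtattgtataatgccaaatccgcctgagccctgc
mRpS23 and CenG1A: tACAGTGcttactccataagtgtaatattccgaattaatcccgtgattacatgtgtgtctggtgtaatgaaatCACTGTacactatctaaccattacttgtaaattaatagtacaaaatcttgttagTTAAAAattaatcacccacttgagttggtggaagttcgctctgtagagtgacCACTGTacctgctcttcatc
Atat and Shc: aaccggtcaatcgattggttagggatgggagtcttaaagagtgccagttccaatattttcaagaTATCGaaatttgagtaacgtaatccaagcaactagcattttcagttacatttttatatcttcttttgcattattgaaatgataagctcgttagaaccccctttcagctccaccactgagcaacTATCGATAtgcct
brm and Arl1: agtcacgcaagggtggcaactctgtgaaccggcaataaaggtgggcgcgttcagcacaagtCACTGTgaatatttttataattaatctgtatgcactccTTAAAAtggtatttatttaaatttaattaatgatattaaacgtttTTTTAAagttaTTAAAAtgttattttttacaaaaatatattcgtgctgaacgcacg
All 6 carried at least 1 marked motif, TTAAAA on either strand in 5 of them, and the stretch between Atat and Shc held a complete DRE, TATCGATA, near its right end. The stretch between mRpS23 and CenG1A held ACAGTG 3 times. Because the 6 were chosen with these motifs in view, the counts only describe them. TTAAAA was within 100 bp of the summit in 63.7% of all divergent-pair peaks. The share was 46.5% at peaks with a TSS within 1000 bp that do not meet the rule. None of the 6 held the T-box site GGTGTGA within 100 bp of its summit. GC content in the same windows ran from 29.9% (CG5611 and Mtl) to 47.8% (Ugalt and eIF2Bbeta). The median of all divergent-pair peaks was 32.3%, so the 6 do not stand for their base composition.

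Of the 3 divergent-pair peaks with GGTGTGA, the longer T-box site, within 100 bp of the summit, 1 had the match between the paired start sites. It lay at chr3R:23781693-23781739, between Nup98-96, which encodes nuclear pore proteins, and mbc, the myoblast fusion gene myoblast city. A DRE example from the pair fws, a subunit of the Golgi COG complex, and Lamtor3, a subunit of the lysosomal Ragulator, lay at chr2L:17481198-17481230. Both are shown because they carry the site of the tagged factor's family and the motif with the highest odds ratio between classes of promoter peaks. Capitals mark the whole site, with up to 20 bases to each side. These examples were chosen after their values were seen.
Nup98-96 and mbc: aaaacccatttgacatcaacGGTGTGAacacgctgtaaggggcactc
fws and Lamtor3: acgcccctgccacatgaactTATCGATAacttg
The peak between Nup98-96 and mbc had a series signal of 73.6, with 36.8 in the ranked list of replicate 1 and 39.4 in that of replicate 2. The peak between fws and Lamtor3 had 334 in the series, 182 in replicate 1 and 154 in replicate 2. The first ranked 164 and the second 16 among the 171 divergent-pair peaks.

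The divergent-pair peaks made up 171 of 1140 series peaks, or 15% with an exact (Clopper-Pearson) 95% interval of 13.0 to 17.2%. The same positions cover 0.819% of the bases of the chromosomes analysed, and they held 933 of 140206 peaks in the unthresholded ranked list, or 0.665%. Among ranked peaks below the threshold the share was 0.545%. The share followed the signal. It was 23.9% in the 285 series peaks with the highest signal, 18.6% in the next 285, 11.9% in the 285 after that and 5.61% in the 285 with the lowest. Other peaks with a TSS within 1000 bp, which do not meet the rule, fell in the same order, at 51.2%, 44.6%, 32.3% and 28.8%. The fall was therefore not particular to divergent pairs. Of the 20 highest peaks in the whole series, 7 lay between divergent genes and 9 were such other promoter peaks. These shares describe where the rule placed the peaks and carry no test, and intervals cover counting error only.

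Members lay on 5 of the chromosomes, with 19 on X, 37 on 2L, 31 on 2R, 38 on 3L, 46 on 3R and 0 on 4, where no series peak was listed. Their summits were intergenic in 149 cases, in an intron of another gene or transcript in 20, and in a 5' UTR and a 3' UTR in 1 case each.

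The strongest divergent-pair peak lay between Ugalt, a UDP-galactose transporter of the Golgi, and eIF2Bbeta, a subunit of the exchange factor that recharges eIF2 in translation initiation. Its signal was 1001 in the series, 562 in replicate 1 and 437 in replicate 2. Its summit stood 29 bp from the Ugalt TSS and 690 bp from that of eIF2Bbeta, so it was not centred. Next came the pair of mRpL41, a protein of the mitochondrial ribosome, and CG8079, with 815 in the series, 438 in replicate 1 and 380 in replicate 2. Both peaks sat close to 1 start site of a long gap, which was unusual among the strongest.

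The following peaks lay in shorter gaps. Between CG7601 and CIA30, an assembly factor of respiratory complex I, the signal was 782 in the series, 486 in replicate 1 and 315 in replicate 2. Between Tcs5, a kinase of the tRNA-modifying KEOPS complex, and CHMP2B, of the ESCRT-III membrane machinery, it was 686, 365 and 321 in the same order. Its summit was 108 bp from one TSS and 116 bp from the other. Between CG5611 and Mtl the values were 679, 395 and 275. In these pairs too the signal of replicate 1 was the higher.

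Mitochondrial ribosomal proteins recurred. The peak between mRpS23 and CenG1A, a GTPase-activating protein for Arf, had 659 in the series, 369 in replicate 1 and 302 in replicate 2. The peak between mRpS10 and Art3, an arginine methyltransferase, had 582, 318 and 267. The peak between Atat, the alpha-tubulin acetyltransferase, and Shc, an adaptor of receptor tyrosine kinases, had 504, 293 and 214. The last 2 had start sites at nearly equal distances on both sides, 127 and 130 bp for Art3 and mRpS10 and 115 and 137 bp for Atat and Shc.

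The other peaks of the 20 strongest found in both replicates' lists ran from 301 to 492 in series signal. They lay between CG13390 and CG17294, CG3437 and CG3552, Mnat9 and CG1792, and brm and Arl1, where brm encodes the ATPase of the SWI/SNF remodeller and Arl1 a Golgi GTPase. Further pairs were Mkk4, a kinase of the JNK pathway, with SLIRP2, Lon, the mitochondrial protease, with PIG-F, of GPI anchor synthesis, and Reps with l(2)gd1, which acts in endosomal sorting. The rest were fws and Lamtor3, Coq4, of coenzyme Q synthesis, and CG32176, Mppe and pds5, a cohesin cofactor, DUBAI and Tmem18, and RpS27, of the cytosolic ribosome, and Nup37, a nucleoporin. In all 20 the signal of replicate 1 exceeded that of replicate 2, by a ratio of 1.06 to 1.71 with a median of 1.29. Of these gaps 17 were at most 400 bp long.

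Replicate 1 gave the higher value in most divergent-pair peaks. Among the 164 that overlapped a ranked peak in both replicates, it was higher at 140 (85.4%), with a median ratio of 1.36. Over all series peaks with both values the ratio was 1.29 and replicate 1 was higher at 77.0%, so the direction was that of the whole series. Each replicate's signal is on its own scale, and the scaling between them is unknown.

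**Figure D1:**
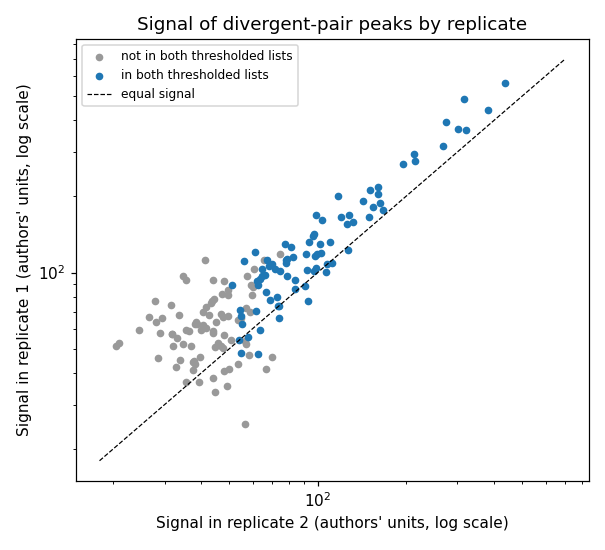
Signal of the 164 divergent-pair peaks with a ranked peak in both replicates, replicate 1 against replicate 2, both on log axes in the authors' units. Blue points are the 81 peaks in both thresholded lists, grey points the others, and 140 points lie above the dashed line of equal signal.

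Whether divergent-pair peaks were found in each replicate as often as other promoter peaks was tested against the 447 one-sided promoter peaks, which have a TSS within 1000 bp but do not meet the rule. The thresholded list of replicate 1 held 140 of 171 divergent-pair peaks (81.9%, interval 75.3 to 87.3%), beside 63.0% of all series peaks. That of replicate 2 held 88 (51.5%, interval 43.7 to 59.2%), beside 38.9% of all. Both lists held 81 (47.4%, interval 39.7 to 55.1%), beside 33.9% of all, and the conservative series list held 155 (90.6%), beside 81.0% of all. A further 59 were in the list of replicate 1 alone, 7 in that of replicate 2 alone and 24 in neither. Over all 1140 series peaks, 718 were in the list of replicate 1, 443 in that of replicate 2 and 386 in both. The larger count in replicate 1 was therefore that of the whole series.

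The difference from one-sided promoter peaks did not pass in any of the 4 lists. Their shares were 72.9% in replicate 1, 47.0% in replicate 2, 43.4% in both and 86.6% in the conservative list. The odds ratio for replicate 1 was 1.68 (95% interval 1.08 to 2.61), with an adjusted p of 0.0868 by two-sided Fisher's exact test with Benjamini-Hochberg adjustment over the 4 lists. For both lists it was 1.17 (0.824 to 1.67), with an adjusted p of 0.416, so a modest difference either way lay within the interval. Peaks are the units of these p-values and of those that follow, and embryos beyond the 2 replicates do not enter them.

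Presence in both lists followed signal. Of the 68 divergent-pair peaks among the 285 highest series peaks 95.6% were in both, against 28.3% of the 53 among the next 285, 2.94% of the following 34 and 0 of the last 16. Over all series peaks the shares in the same 4 classes were 95.4%, 34.7%, 2.81% and 2.46%, so this was the pattern of the whole series. The 81 in both lists had a median series signal of 201, the 66 in only 1 list 108, and the 24 in neither 84.2. In replicate 1 the 81 ranged from 47.7 to 562 with a median of 112, and in replicate 2 from 51.1 to 437 with a median of 91.8.

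Series signal of the divergent-pair peaks had a median of 129, from 2.96 to 1001, beside 123 for one-sided promoter peaks and 89.8 for peaks farther than 1000 bp from any protein-coding TSS. Above the series median of 105 were 121 of 171 divergent-pair peaks (70.8%) and 273 of 447 one-sided promoter peaks (61.1%). The odds ratio was 1.54 (1.05 to 2.26), with p = 0.0252 by two-sided Fisher's exact test. The difference lost its call in 9 of the 10 alternatives run and kept it with a limit of 2000 bp (odds ratio 1.78, p = 0.00140 by Fisher's exact test). The odds ratio was 0.825 (p = 0.487 by Fisher's exact test) when only summits of 28 to 36% GC were compared. It is therefore given as a difference that depends on which peaks are compared.

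Summits lay near the centre of the shorter gaps more often than that of the longer ones. The median distance was 140 bp to the left TSS and 144 bp to the right TSS, and the nearer of the 2 was 104 bp away (quartiles 77 and 134.5). The nearer gene was the left one for 86 peaks and the right one for 85. In the 121 gaps of up to 400 bp, 80 summits (66.1%) fell in the middle one of 3 equal parts of the gap, and 69 had both TSSs at 75 to 200 bp. For the 50 summits in longer gaps the nearer TSS was 167 bp away at the median and the farther one 474 bp, and 17 of the 50 (34%) fell in the middle part. Distances are part of the rule and are given without a test. One-sided promoter peaks upstream of their TSS stood at a median of 221 bp from it.

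**Figure D2:**
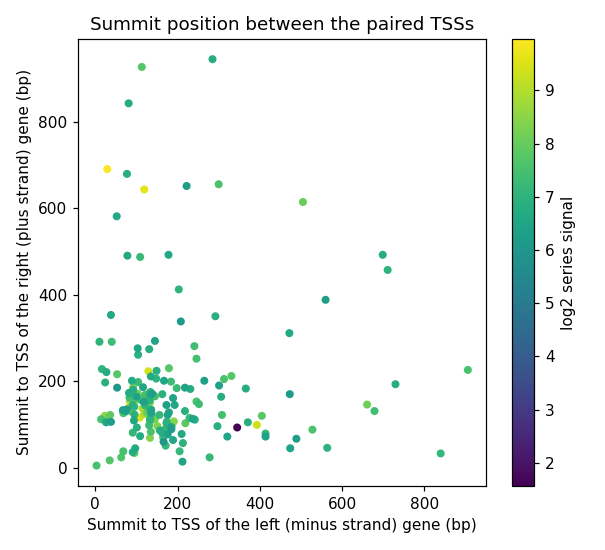
Distance from each divergent-pair summit to the TSS of the left gene and of the right gene, in bp, coloured by log2 series signal. Points gather where both distances are near 140 bp, and points far out along either axis are summits in longer gaps.

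The shortest gap was 8 bp, between SerRS, which charges tRNA with serine, and CG17260, with a signal of 184 in the series, 112 in replicate 1 and 77.8 in replicate 2. The next were 52 bp between CG32022 and CG6511 and 87 bp between CG10747 and Pyroxd1, with series signals of 209 and 201. The longest were 1229 bp between CG10527 and Treh, the trehalase gene, 1191 bp between Amun and prtp, and 1168 bp between Setd3 and CG4586, with signals of 112, 108 and 129. The 3 shortest gaps held peaks above the divergent-pair median of 129, and the 3 longest held peaks near or below it. Signal did not fall steadily with gap length. Its median was 147 in gaps of 201 to 300 bp, 108 at 401 to 500 bp and 153 at 1001 to 1500 bp.

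Around the 1000 bp limit, the last peaks inside had a farther TSS at 944 bp (CG10527 and Treh, signal 112), 926 bp (SLC5A11 and CG8419, 204) and 906 bp (Fsn and Dp, 178). The first outside stood at 1022 bp (CG31174 and CG31431, 229), 1053 bp (Gr39b and CG8665, 81.9) and 1303 bp (PPP1R15 and Sox14, 499). These 6 values are given as a description.

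Of the gaps, 3 held 2 summits each. Between tamo and Zfrp8 the signals were 86.6 and 2.96, the second a weak summit beside a stronger peak. Between Ac78C, an adenylyl cyclase, and chb, the microtubule-binding CLASP protein, they were 106 and 108, at 81 bp from the Ac78C TSS and 193 bp from the chb TSS. Between l(1)G0320 and RpS28b they were 73.3 and 144. In all 3 gaps the summits were nearest to different genes.

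Most divergent gaps held no peak. The gene models have 2904 such gaps of at most 2000 bp, and 168 of them (5.79%) held a divergent-pair summit. The share was 3 of 416 (0.721%) for gaps up to 100 bp, 15 of 343 (4.37%) at 101 to 200 bp, and 69 of 519 (13.3%, interval 10.5 to 16.5%) at 201 to 300 bp. It was 34 of 372 (9.14%) at 301 to 400 bp and then lower, at 5.62% of 249 gaps of 401 to 500 bp, 4.49% of 401 gaps of 501 to 750 bp and 4.29% of 210 gaps of 751 to 1000 bp. Gaps of 1001 to 1500 bp held one in 2.65% of 226. None of the 168 gaps longer than that held one, and the rule reaches less of such a gap. A short gap also offers few positions, because the summit must fall between the paired start sites. A peak over a short gap with its summit just outside was not counted. The part of this in the low shares of short gaps was not tested.

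Gaps of 201 to 400 bp made up 61.3% of the gaps with a peak and 28.9% of those with no series summit. Ranked peaks, which include those above and below the threshold, were strongest in the same class. That is not separate from the shares above. At 201 to 300 bp, 184 gaps held a ranked summit and 69 a divergent-pair summit. The highest ranked signal in a gap had a median of 13.2 up to 100 bp, 32.4 at 101 to 200 bp, 57.7 at 201 to 300 bp and 39.6 at 301 to 400 bp, among gaps with any ranked summit. In the longer classes the medians lay between 27.5 and 34.2. The share of gaps with any ranked summit ran differently, from 3.37% up to 100 bp through 35.5% at 201 to 300 bp to 65.5% at 1001 to 1500 bp. By chromosome, the share of gaps with a divergent-pair summit was 3.91% on X, 6.56% on 2L, 5.06% on 2R, 6.58% on 3L and 6.50% on 3R, and 0 of 17 on chromosome 4.

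**Figure D3:**
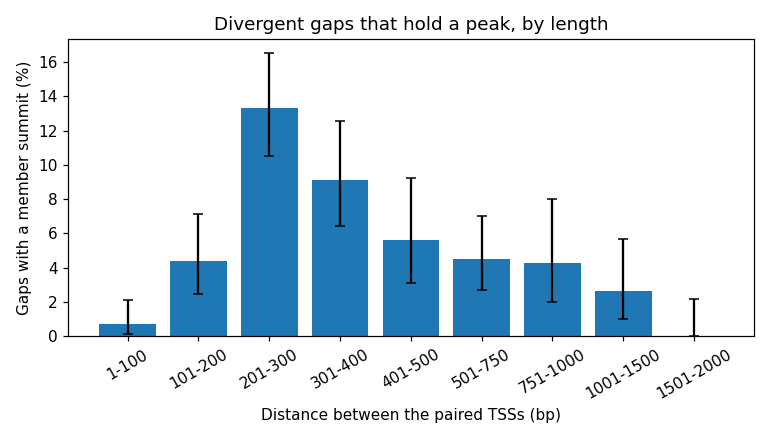
Share of divergent gaps that hold a divergent-pair summit, in percent, by the distance between the paired TSSs in bp, with exact 95% intervals. The bar at 201 to 300 bp stands highest at 13.3%, and the interval of the shortest class ends at 2.09%.

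Divergent-pair summits lay in AT-rich sequence. The median GC content within 100 bp of the summit was 32.3%, beside 36.8% at one-sided promoter peaks and 39.8% away from promoters. In steps of 50 bp, mean GC was lowest just right of the divergent-pair summits, at 29.0%, and 30.5% just left of them. It rose to 40.8% and 40.6% at 100 to 150 bp on the left and right. At the midpoints of gaps without a series summit the corresponding values were 34.2% and 34.4%, and at 100 to 150 bp they were 37.4% on both sides, so the dip was shallower there. Summits and midpoints are placed differently, and the profiles carry no test.

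**Figure D4:**
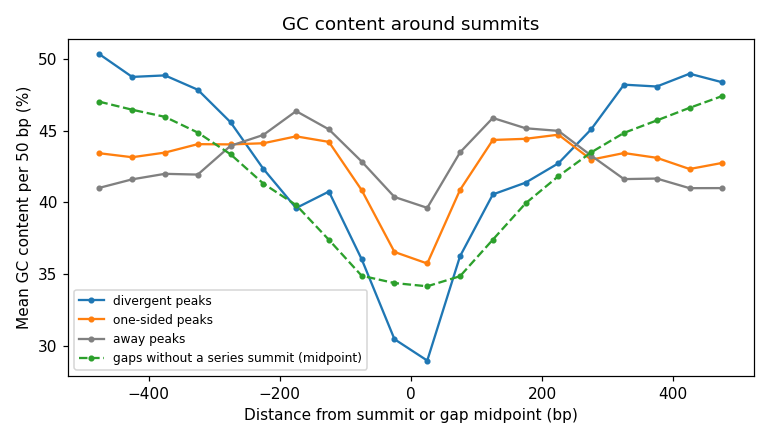
Mean GC content in percent per 50 bp step by distance in bp from the summit of divergent-pair, one-sided and other peaks, and from the midpoint of divergent gaps without a series summit. The line of the divergent-pair peaks falls to 29.0% beside the summit, the lowest of the lines drawn.

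Motifs were searched on both strands within 100 bp of each summit. The 13 were the T-box site GGTGTGA and its core GTGTGA, the DRE (TATCGATA), the BEAF-32 core CGATA, Motif 1 (GGTCACAC), the E-box CAGCTG, the TATA core TATAAA and the GAGA factor's GAGAG. The others were the forkhead forms (ATAAACA or ATAAATA, with either A or G as the first base, counted as a single motif), the homeodomain core TAATTA, Zelda's CAGGTAG, and the 6-mers ACAGTG and TTAAAA, which had led an earlier search of these summits and are no independent choice. CGATA lies inside the DRE, GTGTGA lies inside GGTGTGA and reads on the other strand of Motif 1. A match describes the letters in the window and no match says only that they are not there.

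The 6-mers are given with no test, since they came from these summits. Of the other 11 motifs, 4 were more frequent and 1 less frequent at divergent-pair peaks than at one-sided promoter peaks, by two-sided Fisher's exact test with Benjamini-Hochberg adjustment over all 13. Adjustment over the 11 alone gave the same number, 5. The 11 were also chosen with earlier results of these data known, so the p-values describe these peaks and are no independent support. The DRE was in 15 of 171 windows (8.77%) against 7 of 447 (1.57%), an odds ratio of 6.04 (2.42 to 15.1) with an adjusted p of 0.000426. CGATA was in 36.8% against 23.3%, an odds ratio of 1.92 (1.32 to 2.81) with an adjusted p of 0.00182. GAGAG, the element of the GAGA factor, was in 14.0% against 27.3%, an odds ratio of 0.435 (0.269 to 0.702) with an adjusted p of 0.00116. Within 50 bp of the summit none of these 3 passed, with odds ratios of 3.54 for the DRE (adjusted p = 0.314 by Fisher's exact test), 1.09 for CGATA (1) and 0.759 for GAGAG (0.840). The classes also differed in the nearest TSS, at a median of 104 bp for divergent-pair and 232 bp for one-sided peaks. By the rule, divergent-pair peaks also had a start site within 1000 bp on both sides, while a one-sided peak may have a single one. Whether the distance or the number of start sites gave the motif differences was not tested.

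The other calls were in motifs made of A and T alone. TAATTA was in 27.5% of divergent-pair windows against 12.5% (adjusted p = 0.000250 by Fisher's exact test) and TATAAA in 49.7% against 32.7% (0.000491). The 6-mer TTAAAA was in 63.7% against 46.5%, with no test. At peaks away from promoters these were 11.7%, 23.6% and 35.2%. The forkhead forms were in 47.4% against 37.4%, an odds ratio of 1.51 (1.06 to 2.15) with an adjusted p of 0.0512 by Fisher's exact test. They passed in 4 of the 13 alternatives run, and the odds ratio ranged from 1.22 to 1.93 over the 13. GC content moved with these results, at 32.3% against 36.8%. With only summits of 28 to 36% GC, 96 divergent-pair against 176 one-sided peaks, Fisher's exact test passed 0 of the 11 motifs after adjustment and 3 at an unadjusted p under 0.05. The odds ratio of the DRE was then 5.24, that of GAGAG 0.406 and that of TAATTA 2.11, each with an adjusted p of 0.0817 by Fisher's exact test. CGATA stood at 1.67 (adjusted p = 0.218 by Fisher's exact test) and TATAAA at 1.31 (0.577).

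The list of replicate 2 alone gave 0 of 11 calls by the same test, with 6 at an unadjusted p under 0.05, on 88 divergent-pair and 219 one-sided peaks. The list of replicate 1 alone gave 3, in the BEAF-32 core, the GAGA element and the homeodomain core. The DRE was not among those calls, with an odds ratio of 7.94 in replicate 2 (adjusted p = 0.0630 by Fisher's exact test) and 3.92 in replicate 1 (adjusted p = 0.0557), nor was TATAAA, at 1.86 (0.0693) and 1.62 (0.0511).

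**Figure D5:**
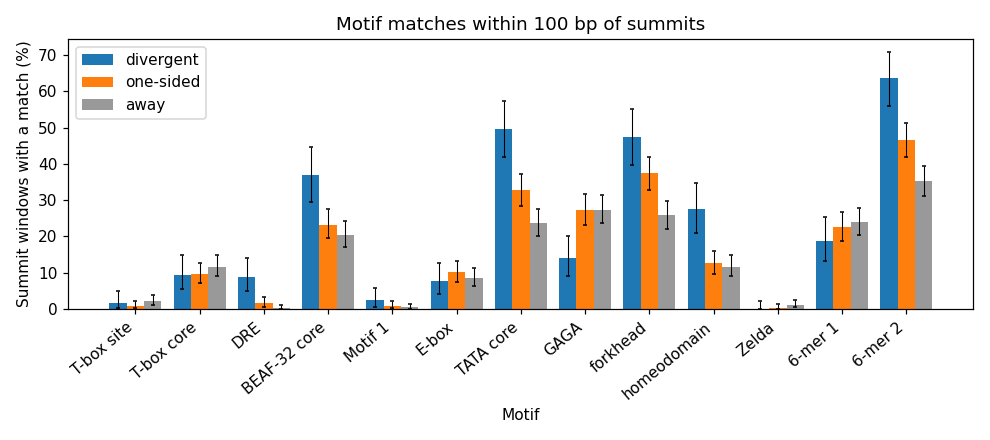
Share of windows within 100 bp of summits that hold a match, in percent, for 13 motifs at divergent-pair, one-sided and away peaks, with exact 95% intervals. 6-mer 1 is ACAGTG and 6-mer 2 is TTAAAA. The DRE stands at 8.77% of divergent-pair windows against 1.57% of one-sided windows, and the T-box site is low in every class.

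The sites of the tagged factor's own family were scarce. GGTGTGA was in 3 of 171 divergent-pair windows (1.75%, interval 0.363 to 5.04%), in 4 of 447 one-sided windows (0.895%) and in 11 of 522 windows away from promoters (2.11%). The odds ratio against one-sided peaks was 1.98 (0.438 to 8.93), with an adjusted p of 0.521 by Fisher's exact test. Besides the pair Nup98-96 and mbc, the windows were those of Hsc70-5 and CG8531 and of AP-2alpha and ebi, where the match lay beyond a TSS, and these pairs were named after their values were seen. The core GTGTGA was in 9.36% of divergent-pair windows against 9.62%, an odds ratio of 0.970 (0.531 to 1.77). With the list of replicate 2 alone it was in 2 of 88 against 21 of 219, an odds ratio of 0.219 (adjusted p = 0.0969 by Fisher's exact test). CAGGTAG, bound by the early factor Zelda, was in 0 of 171, which at 3 counts of the total allows a share of up to 1.75%, and in 1 of 447 one-sided windows.

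The 15 peaks with a DRE ranged from 81.9 to 504 in series signal, with a median of 119, so they were not the strongest as a set. Among them, apart from Atat with Shc and fws with Lamtor3, were the pairs of RpS25 with CG4820, RpL41 with NaCP60E and RpL19 with CG3776, all with a cytosolic ribosomal protein gene and named after their values were seen. For RpS25, the summit signal was 106 in the series, 54.0 in replicate 1 and 53.7 in replicate 2. The match lay between the paired TSSs in 11 of the 15.

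Matches of the DRE, Motif 1 and the E-box lay nearer to the start sites than to the summits. Distances were to the nearer start site of the pair but to a single summit, and no expected distance was computed. Within 250 bp of the summit, 33 of 171 divergent-pair windows held a DRE, and its 34 matches had a median distance of 21 bp from the nearer TSS of the gap and 114 bp from the summit. Motif 1 was in 24 windows, at a median of 27.5 bp from a TSS and 144.5 bp from the summit. Against one-sided peaks, where it was in 16 of 447 windows of this size, its odds ratio was 4.40 (adjusted p = 3.46e-05 by Fisher's exact test), while within 100 bp it was in 4 of 171 against 4 of 447 (2.65, adjusted p = 0.368). The E-box was in 82 windows, at 23.5 bp and 144.5 bp. TTAAAA was placed the other way, at a median of 91.5 bp from the TSS and 72.5 bp from the summit over 360 matches, and the TATA core TATAAA stood at 95.5 bp and 94 bp over 214 matches. The E-box changed direction with the window. It was in 7.60% of divergent-pair windows against 10.1% of one-sided windows within 100 bp (odds ratio 0.735, adjusted p = 0.521 by Fisher's exact test), and within 250 bp the odds ratio was 2.25 with an adjusted p of 4.70e-05. Divergent-pair summits stood nearer to a TSS than one-sided summits, at a median of 104 against 232 bp. By the rule, divergent-pair summits also had a start site within 1000 bp on both sides, while a one-sided summit may have a single one. These odds ratios are thus per window and not per start site. The part of distance or of the number of start sites in them was not tested.

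Gaps with and without a peak were then compared at the midpoint of the gap, a position that does not depend on the summit. TATAAA was within 100 bp of the midpoint in 51.2% of the 168 gaps with a divergent-pair peak and in 39.1% of the 2726 gaps without a series summit, an odds ratio of 1.63 (1.19 to 2.23) with an adjusted p of 0.0111 by Fisher's exact test. That call was lost with windows of 250 bp (1.42, adjusted p = 0.123 by Fisher's exact test), over the whole gap (1.21, 0.568), above the median signal (1.38, 0.226) and with the list of replicate 1 alone (1.35, 0.213) or of replicate 2 alone (1.68, 0.0678). GGTCACAC, Motif 1, was in 0 of 168, which at 3 counts of the total allows a share of up to 1.79%, against 5.03% (adjusted p = 0.00313 by Fisher's exact test). With windows of 250 bp Motif 1 was in 23 of 168 gaps with a peak and 390 of 2726 without, an odds ratio of 0.950 (adjusted p = 1 by Fisher's exact test), and over the whole gap in 8 and 236 (0.528, adjusted p = 0.277). The 6-mers TTAAAA and ACAGTG were taken from a search of these same summits, so their shares are given with no test. TTAAAA was within 100 bp of the midpoint in 115 of 168 gaps with a peak (68.5%) and in 1398 of 2726 without (51.3%), and ACAGTG in 16.1% against 9.39%.

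The DRE did not pass the test there, at 5.95% of gaps with a peak and 7.74% of those without (odds ratio 0.754, interval 0.392 to 1.45, adjusted p = 0.660 by Fisher's exact test), nor did CGATA, at 39.3% and 39.5% (0.992, interval 0.721 to 1.37). These motifs thus differed between divergent-pair and one-sided peaks, with no difference passing between divergent gaps with and without a peak. Gap length and GC content moved with these results, with 31.3% median GC at the midpoint of gaps with a peak and 33.8% without. Among gaps of 201 to 400 bp, 103 with and 788 without a peak, Fisher's exact test passed 0 of the 11 motifs after adjustment and 2 at an unadjusted p under 0.05. TATAAA then had an odds ratio of 1.13 (adjusted p = 0.725 by Fisher's exact test), and Motif 1 was in 0 of 103 against 26 of 788 (adjusted p = 0.202). With the list of replicate 2 alone the test passed 0 of the 11, and 2 at an unadjusted p under 0.05.

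Genes beside the divergent-pair peaks were counted by list. In all, 342 of 13945 protein-coding genes (2.45%) flanked such a peak, or 5.94% of the 5756 genes whose TSS borders a divergent gap. These counts carry no test, because the lists were chosen with earlier results known. For cytosolic ribosomal proteins it was 11 of 92 genes, with 57 at a divergent gap, and for mitochondrial ribosomal proteins 6 of 73, with 59 at a gap. For tRNA synthetases it was 4 of 35, for the general transcription list of RNA polymerase, TFII and Mediator subunits 6 of 80, and for initiation factors 2 of 44. Per gene at a gap, the share was 19.3% for the cytosolic ribosome, 10.2% for the mitochondrial ribosome, 16% for tRNA synthetases, 10.7% for general transcription, 9.09% for initiation factors, 4.08% for the respiratory chain and 0 for the proteasome and Polycomb lists.

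Among cytosolic ribosomal protein genes, RpS27 had the highest peak, at 301 in the series, 166 in replicate 1 and 120 in replicate 2. RpL32 had 224, 109 and 112, and RpL34b had 217, 132 and 93.3. For RpL32 the signal of replicate 2 was the higher. The remaining 8 ranged from 76.7 to 144, the latter at RpS28b.

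The mitochondrial list began with mRpL41, mRpS23 and mRpS10, among the strongest pairs, and went on with mRpL24 at 188, mRpL20 at 160 and mRpS2 at 148 in series signal. For mRpS2 replicate 1 gave 112 and replicate 2 gave 41.2, a wider split than for mRpL24, with 103 and 91.8. mRpL20 and mRpS2 were named after their values were seen. Thus the strongest mitochondrial ribosomal peaks exceeded all of those at cytosolic ribosomal genes.

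Signals at genes of the transcription machinery ranged from 73.1 at MED30 to 177. Polr2H, a subunit shared by the RNA polymerases, had 177 in the series, 76.9 in replicate 1 and 92.4 in replicate 2. Polr2J had 175, 88.4 and 90.3, MED27 147, 73.8 and 74.0, and Polr2B, the second largest subunit of RNA polymerase II, 144, 92.4 and 48.0. MED17 had 116 in the series, and MED30, of the lowest divergent-pair peaks, 73.1 with 33.6 and 44.5 in the replicates, both named after their values were seen. Of the tRNA synthetases, GluProRS had 204, SerRS 184, IleRS 106 and ThrRS 77.3 in series signal. In the insulator and architecture list 2 of 17 genes flanked a peak, Cp190, a cofactor of insulator complexes, with 174, and M1BP, the protein that binds Motif 1, with 89.1. For eIF3c of the initiation list the value was 126, and for ND-ASHI and ND-MWFE of respiratory complex I, 2 of 92 genes in their list (2.17%, beside 2.45% of all genes), 167 and 121.

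In the lists tied to the known roles of Doc2 no gene flanked a divergent-pair peak, beside 2.45% of all genes and 5.94% of genes at a gap. With so few genes at a gap, a count of 0 does not set these lists apart from other genes. Over all genes 41.3% border a divergent gap. The counts were 0 of 8 T-box genes, none of which borders a divergent gap, 0 of 15 heart and dorsal mesoderm genes, 3 of which do, and 0 of 19 dorsal ectoderm and Dpp genes, 6 of which do. They were also 0 of 17 Polycomb genes, with 9 at a gap, and 0 of 48 proteasome genes, with 30 at a gap. Genes known by a CG number alone were 103 of the 342 flanking genes (30.1%) and 43.7% of all protein-coding genes.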

How the data were processed

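Peak lists from chromatin immunoprecipitation of Doc2-eGFP in 2 replicates were used as deposited, on dm6, per the notes that came with them. The authors made thresholded and ranked lists with an irreproducible discovery rate (IDR) step, per those deposited notes, for each replicate and for the series. Signal is the deposited value of the authors' peak caller in each list, and it was used to describe, rank or split peaks. Aligner and caller: not given in the sources used here. No read counts were used, so depth is unknown.

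Chromosomes were X, 4 and both arms of 2 and 3, which left out 90 of 1230. Positions are 1-based. TSSs were those of protein-coding transcripts in Ensembl release 115, and sequence came from the RefSeq genome of the same assembly. A replicate's value is its highest peak overlapping by at least 1 bp. Classes were compared with two-sided Fisher's exact tests and Benjamini-Hochberg adjustment at 0.05 (scipy 1.17.1, numpy 2.4.6, pandas 2.3.3), with exact 95% intervals for shares and log-scale normal intervals for odds ratios. The tests were tried on simulated data.

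Named genes flank the 20 strongest divergent-pair peaks in both replicates' lists, the 3 shortest and 3 longest gaps, the 3 peaks on each side of the 1000 bp limit, gaps with several summits, and up to 4 members of each gene list. Other genes are named as chosen after their values were seen. The members, motifs and lists were chosen with earlier results of these data known. Alternatives were the conservative list, each replicate's list alone, other TSS sets, limits of 500 and 2000 bp, merged peaks, the 50% of peaks of highest signal, windows of 50 and 250 bp and restrictions on GC or gap length.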

Additional observations from a re-analysis of the deposited data

How the results depend on the processing

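The share of divergent-pair peaks was 18.79 to 18.80% with 1 replicate's list alone and 21.2% among the peaks above the median signal, against 15%. The share of gaps with a summit was 3.03 to 4.99% with 1 replicate's list, 4.89% with TSSs of all genes and 4.13% above the median signal, against 5.79%. The odds ratio for a signal above the median was 1.01 to 1.12 with 1 replicate's list, 1.36 with the conservative list (p = 0.110 by Fisher's exact test) and 1.36 with 1 TSS per gene. It was 1.20 with a limit of 500 bp, 1.44 with TSSs of all genes, 1.42 with merged peaks and 1.35 against upstream peaks, none past the threshold, and it reversed to 0.825 at 28 to 36% GC.

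The number of motifs that differed from one-sided peaks was 0 to 4 with 1 replicate's list, 2 above the median signal, 2 with windows of 50 bp and 0 at 28 to 36% GC, against 6. It was 7 with 1 TSS per gene, limits of 500 and 2000 bp or merged peaks, where the forkhead forms also passed, and 8 with windows of 250 bp. Between gaps it was 0 to 4 with 1 replicate's list, 2 above the median signal, 2 over the whole gap and 0 among gaps of 201 to 400 bp, against 4. These counts include the 6-mers ACAGTG and TTAAAA, which came from these summits and so add no evidence. Over the other 11 motifs they were 5 and 2, 0 at that GC and 0 in those gaps. The GC and gap length restrictions were chosen after seeing the data. The E-box reversed past the threshold to odds ratios of 2.25 against one-sided peaks and 1.92 between gaps with windows of 250 bp, and to 1.72 over the whole gap. Apart from the E-box and the signal comparison, no reversal passed a threshold on either side. Presence in both lists went to 0.929 at a limit of 500 bp, 0.897 above the median signal and 0.811 at 28 to 36% GC.

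Against one-sided peaks, the E-box was at 1.28 to 1.72 with 1 replicate's list, 1.09 above the median signal and 1.36 at 28 to 36% GC. The T-box site was at 0 to 3.19 with 1 replicate's list, 0 within 50 bp and 0.607 at 28 to 36% GC, and its core at 1.03 with 1 TSS per gene, 1.01 at 500 bp and 1.20 within 250 bp, and 0.219 to 0.904 with 1 replicate's list. ACAGTG was at 1.14 with 1 TSS per gene, Motif 1 at 0 within 50 bp and 4.40 within 250 bp, past the threshold, and Zelda's motif at 1.59 within 250 bp.

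Between gaps, CGATA was at 0.908 to 1.29 with 1 replicate's list, 1.04 with 1 TSS per gene, 1.05 with TSSs of all genes and 1.44 within 250 bp. GAGAG was at 0.831 to 1.22 with 1 replicate's list, 1.03 with the conservative list, 1.08 with 1 TSS per gene, 1.17 with TSSs of all genes, 1.05 above the median signal and 1.12 among gaps of 201 to 400 bp. The DRE was at 1.21 within 250 bp and 1.03 over the whole gap, the E-box at 1.30 among gaps of 201 to 400 bp, the T-box core at 1.01 and Zelda's motif at 1.22 within 250 bp. For all these changes the cause was not tested. Of 64 comparisons of a main result with an alternative 38 showed no such change, and of 331 for single motifs 247 kept direction and side of the threshold. No odds ratio could be given where one-sided peaks had no match, in 7 further comparisons. Presence in both replicates' lists cannot be recomputed without a replicate. No paired analysis was possible because there was 1 group.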
